A study of Mus musculus with 8 samples.

Results

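The cells described here are bone-marrow macrophages in which at least 2 of the RNAs of Il1b, Acod1, Saa3 and Ccl5 were detected, or in which these RNAs together gave at least 3 unique molecular identifiers (UMIs, the counts of single captured RNA molecules). They are called members below, and there were 231 of them among 9196 cells, or 2.51%. The cells were chosen by their measured counts of these 4 RNAs, so the levels of those RNAs are a description and carry no test. Of the members, 229 came from the CYR61 libraries and 2 from the control libraries. Marrow cells of C57Bl/6J mice, labelled male and aged 10 weeks, had been cultured for 3 days with M-CSF, the growth factor that drives macrophage development. They then spent 24 h with CYR61 at 4 µg/mL or, as controls, without it, and 4 libraries per condition were made on the HIVE platform, in which cells settle into picowells for capture of their RNA. CYR61, also called CCN1, is a secreted matrix-associated protein that binds integrins, and the study's title links it to fibrosis in NASH by way of macrophage SYK, NF-kB and PDGF. The labels do not say whether the 4 libraries of a condition came from separate mice or cultures, so every p-value here measures the spread between libraries, which may be technical.

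Macrophages that sense microbial products or damaged tissue switch on an inflammatory program through NF-kB and, through secreted interferon acting back on the cell, through STAT and IRF factors. Il1b encodes the precursor of the cytokine interleukin-1 beta, which inflammasomes cut to its active form. Acod1 encodes the mitochondrial enzyme that makes itaconate, Saa3 an acute-phase serum amyloid A protein, and Ccl5 a chemokine that draws T cells and monocytes.

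Promoter sequence from RefSeq on GRCm38.p6 (mm10) is shown for rule genes with an entry, since those genes define the cells. Each line gives the 250 bases before RefSeq's transcription start on the gene's strand. Acod1 lies on the plus strand (window chr14:103046762-103047011), Saa3 on the minus strand (chr7:46715677-46715926) and Il1b on the minus strand (chr2:129371140-129371389). Capitals mark matches, on either strand, to the letters GGGNNNNNCC, a loose NF-kB pattern, or TTTCNNTTTC, a loose interferon-response pattern; no 2 marked matches overlap.
Acod1: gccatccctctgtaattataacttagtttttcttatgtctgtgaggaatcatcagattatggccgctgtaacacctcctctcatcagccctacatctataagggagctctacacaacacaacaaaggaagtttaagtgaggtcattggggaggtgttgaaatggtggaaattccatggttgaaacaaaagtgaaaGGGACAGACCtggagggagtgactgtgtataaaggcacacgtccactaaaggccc
Saa3: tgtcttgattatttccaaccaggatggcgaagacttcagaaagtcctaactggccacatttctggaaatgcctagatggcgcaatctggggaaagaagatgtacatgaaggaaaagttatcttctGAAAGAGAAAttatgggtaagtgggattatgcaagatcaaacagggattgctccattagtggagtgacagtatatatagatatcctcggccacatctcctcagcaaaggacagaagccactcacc
Il1b: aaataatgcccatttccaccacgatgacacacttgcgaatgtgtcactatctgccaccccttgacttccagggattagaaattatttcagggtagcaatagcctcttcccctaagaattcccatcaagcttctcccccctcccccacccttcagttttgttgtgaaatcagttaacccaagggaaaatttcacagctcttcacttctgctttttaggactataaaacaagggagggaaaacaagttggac
The Acod1 window held GGGACAGACC, a match to the NF-kB letters that begins 55 bases before the start, and 45.8% of the 32851 promoter windows held these letters. In Saa3 the capitals GAAAGAGAAA are the interferon-response letters on the opposite strand, beginning 125 bases before the start, and 2.98% of windows held them. Neither pattern was found in these letters of Il1b. Ccl5 lies on chr11:83525778-83530518 on the minus strand.

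Each table listed 5000 barcodes, and 12848 of 40000 passed at least 300 genes and at most 20% mitochondrial UMIs. Library totals ran from 2105422 to 16318946 UMIs for CYR61 and from 1379637 to 5468740 for control, and median UMIs per kept cell ran from 789 to 1595 in CYR61 libraries and from 921 to 1144 in control libraries. Many barcodes were listed in several libraries of the same date stamp, and each was kept only where it had most UMIs. Of the CYR61 members, 186 (81.2%) had a barcode that another library also listed, against 34.3% of all kept CYR61 cells. CYR61 libraries 1 and 2 carry the earlier date stamp and contain Xist RNA, whereas CYR61 3 and 4 carry the later stamp and contain Y-linked RNA, although all mice are labelled male. The date and the sex of the CYR61 libraries therefore cannot be told apart. Control libraries 2 and 3 contained Xist RNA, and control 1 and 4 Y-linked RNA.

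Members were present in every CYR61 library. They were 49 of 1971 cells (2.49%, 95% Clopper-Pearson interval 1.84% to 3.27%) in CYR61 1 and 76 of 3604 (2.11%, 1.66% to 2.63%) in CYR61 2. In CYR61 3 they were 26 of 499 (5.21%, 3.43% to 7.54%) and in CYR61 4 they were 78 of 1065 (7.32%, 5.83% to 9.06%). No member was found among 1058, 294 and 390 cells of control 1, 3 and 4, with Clopper-Pearson intervals that reach up to 0.348%, 1.25% and 0.941%. Control 2 had 2 of 315 (0.635%, 0.077% to 2.27%). The CYR61 libraries averaged 4.28% ± 2.45 and the control libraries 0.159% ± 0.317 (SD, n = 4 each), and the groups did not overlap. Within the CYR61 libraries, the intervals of the later pair lay above those of the earlier pair. This did not hold for CYR61 3 once cells with at least 3 UMIs of neutrophil granule genes (without Lcn2 and Chil3) were left out. Shares were then 2.40%, 2.07%, 2.54% (1.27% to 4.50%) and 6.29% (4.87% to 7.96%) in CYR61 1 to 4. In control 1 to 4 they were 0%, 0.658%, 0% and 0%. These intervals and limits cover counting error only, and no test is given because the share is built from the RNAs that the rule used. With each barcode kept in every library that lists it, members were 2.15%, 2.09%, 4.42% and 7.15% of cells in CYR61 1 to 4. In control 1 to 4 they were then 0%, 1.31%, 0.815% and 1.61%. Of the 28, 4 and 8 such members of control 2, 3 and 4, 26, 4 and 8 had more UMIs in another library.

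Depth bore on this share. When every cell with at least 1000 UMIs was thinned to 1000, members made up 0.448%, 0.442%, 1.55% and 3.48% of the cells in CYR61 1 to 4, and none were found in the control libraries. Among cells of at least 5000 UMIs, members reached 7.06% of 453, 6.31% of 856, 38.6% of 44 and 27.8% of 187 cells in CYR61 1 to 4, against 0 of 138, 2 of 47, 0 of 31 and 0 of 48 in control 1 to 4. Without barcodes that another library also listed, members were 0.352%, 0.436%, 0.273% and 3.14% of cells in CYR61 1 to 4 and 0 in each control library. The 43 CYR61 members left had a median of 1678 UMIs, against 12160 UMIs in the 186 members whose barcodes were listed elsewhere. Both control members had barcodes listed in other libraries, with 5395 and 6287 UMIs in CYR61 2 against 11590 and 13308 in control 2.

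**Figure D1:**
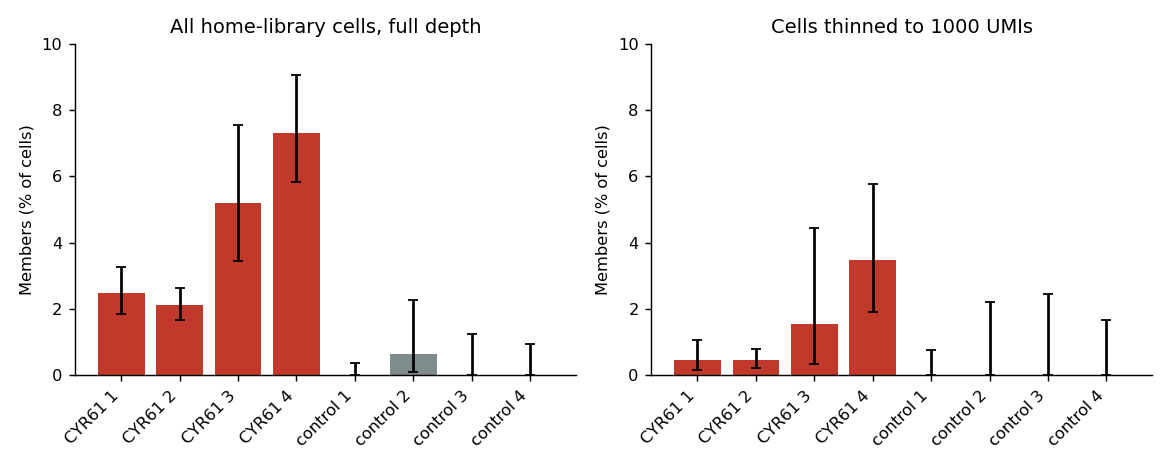
Members as a percentage of cells in each library, CYR61 left of control, at full depth (left) and after thinning every cell to 1000 UMIs (right); bars are shares and lines 95% Clopper-Pearson intervals. At full depth the CYR61 libraries lie between 2.11% and 7.32%, and 1 control library, control 2, is above 0, at 0.635%.

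RNA of the 4 genes was also found outside called cells. Barcodes with fewer than 300 genes held the 4 RNAs at a summed 64.2, 71.3, 147 and 227 CPM (counts scaled to a total of 1000000 UMIs) in CYR61 1 to 4, against 1.75, 17.4, 59.5 and 9.51 CPM in control 1 to 4. Every CYR61 value lay above every control value, with CYR61 1 close to control 3. Pooled, the rates were 151 CPM in CYR61 libraries (98.0 without CYR61 4) and 15.1 CPM in control libraries (8.32 without control 3). At the pooled CYR61 rate, a cell of 9879 UMIs, the median member, would hold 1.49 UMIs of the 4 RNAs. The member median was 4 UMIs with a highest value of 89. Since the rule admits only cells with at least 2 of these UMIs, a member median above 1.49 was set by the rule. By gene, pooled CYR61 rates in these barcodes were 20.4 (Il1b), 37.9 (Acod1), 52.9 (Saa3) and 40.0 CPM (Ccl5). Means of the 4 CYR61 libraries over kept cells were 17.6, 31.5, 37.2 and 40.7 CPM. Barcodes with fewer than 300 genes were not limited to the library with most UMIs. How much of the RNA in members near the threshold came from outside the cell was not tested.

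Il1b was the least widely detected of the 4 RNAs, in 48 members (21.0%), followed by Acod1 in 99 (43.2%), while Saa3 and Ccl5 were each detected in 137 (59.8%). Over all cells, Il1b reached 8.59, 4.52, 13.9 and 43.3 CPM in CYR61 1 to 4, against 0.291, 0.849, 0 and 0 CPM in control 1 to 4. A single cell gave 14 of the 16 Il1b UMIs in CYR61 3 and 46 of the 162 in CYR61 4. Acod1 reached 8.85, 6.82, 50.5 and 59.9 CPM in CYR61 1 to 4, against 0.291 CPM in control 1 and 0 in the other control libraries. Acod1 was higher in the later CYR61 pair than in the earlier one, whereas Il1b in CYR61 3 without its leading cell was 1.74 CPM, the lowest of the CYR61 libraries.

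Saa3 was more even, with 26.4, 21.7, 33.9 and 66.6 CPM in CYR61 1 to 4, against 0.291, 7.64, 0 and 0 CPM in control 1 to 4. Ccl5 gave 19.0, 36.4, 52.2 and 55.1 CPM in CYR61 1 to 4, against 0.291, 8.49, 0 and 0 CPM in control 1 to 4. No CYR61 library overlapped a control library for any of the 4 RNAs. Control totals were 2 UMIs of Il1b, 1 of Acod1, 10 of Saa3 and 11 of Ccl5. Members held 76.7% of the CYR61 UMIs of Il1b, 72.0% of Acod1, 60.8% of Saa3 and 64.2% of Ccl5.

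The 4 RNAs did not come as one block. Of the CYR61 members, 75 (32.8%) had UMIs of 1 gene, 120 (52.4%) of 2 genes, 30 (13.1%) of 3 genes and 4 (1.75%) of all 4. The commonest combination was Saa3 with Ccl5 (46 cells), ahead of Ccl5 alone (31), Saa3 alone (29), Acod1 with Ccl5 (24) and Acod1 with Saa3 (22). Il1b was seen alone in 3 members, and 24 of its 48 carriers also had Acod1. Cells with more of the RNAs were deeper, with median UMIs of 9035, 9380, 15970 and 18674 for 1 to 4 genes. At this depth, a missing RNA does not show that a cell lacked it.

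**Figure D2:**
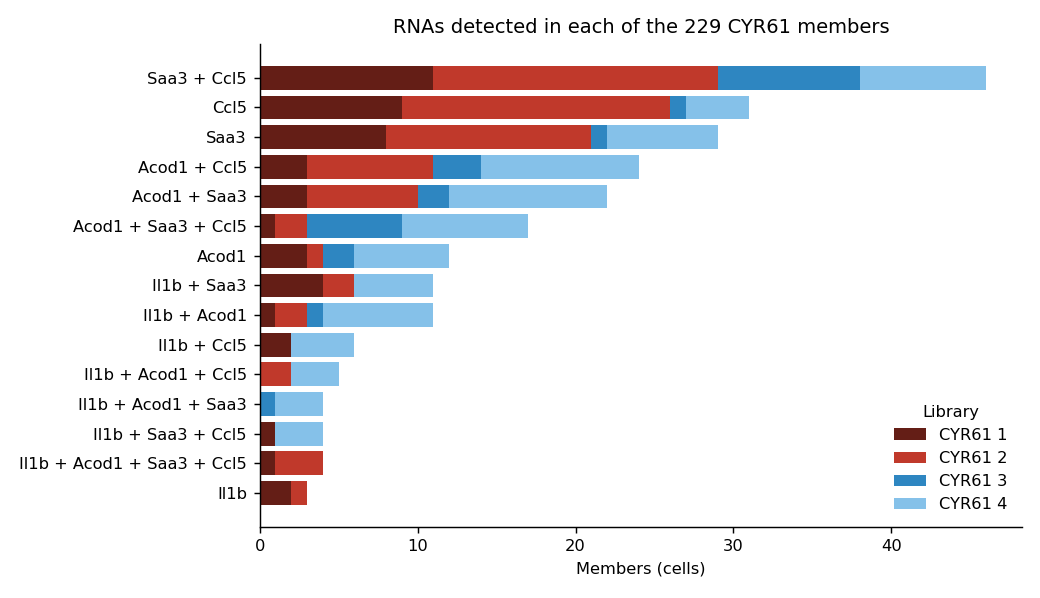
Number of CYR61 members with each combination of the 4 RNAs, stacked by library. Saa3 with Ccl5 leads with 46 cells, and all 4 RNAs together occur in 4 cells.

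The members carried macrophage RNA. Lyz2, encoding lysozyme, was detected in all 229 CYR61 members, Cd68 in 93.0%, Adgre1 (F4/80) in 88.2%, Fcgr1 in 84.3% and Csf1r, the M-CSF receptor, in 82.5%. Comparison cells are cells of the same library and UMI range with none of the 4 RNAs. They had Lyz2 in 99.96%, Cd68 in 75.3%, Adgre1 in 60.4%, Fcgr1 in 49.1% and Csf1r in 51.9%, so Lyz2 did not set members apart. Other macrophage markers were less widely detected in members, with Mertk in 62.0%, Cd14 in 57.2% and C1qa in 42.8%. In comparison cells these were 33.1%, 15.6% and 17.4%. Those 5233 cells were shallower: median UMIs were 8669, 9628, 11087 and 10586 in members of CYR61 1 to 4, against 3069, 1499, 779 and 773 in comparison cells. The summed level of the 12 macrophage markers is not raised by depth as such. It was 12196 to 13545 CPM in members and 12522 to 19682 CPM in comparison cells, so the ranges overlapped. Lyz2 was by far the largest part of this sum. It had 21100 UMIs in members, with Cd68 next at 2836, and 151172 in comparison cells, with C1qb next at 17849. Median mitochondrial shares were 2.83% to 6.34% in members and 4.86% to 12.4% in comparison cells.

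RNA of other cell types was also present in some members. Neutrophil granule genes, counted without Lcn2 and Chil3, gave at least 3 UMIs in 33 members (14.4%), against 90 comparison cells (1.72%), with 2, 2, 15 and 14 such members in CYR61 1 to 4. As a level, the 10 granule genes summed to 98.1 to 1037 CPM in members and 66.6 to 1231 CPM in comparison cells, and none was at 0 in members. T and NK cell genes reached 3 UMIs in 1 member, B cell genes in 2, mast cell genes in 1 and stromal genes in 1. The 7 monocyte genes summed to 162 to 334 CPM in members and 95.5 to 128 CPM in comparison cells, without overlap. S100a8 and S100a9, which neutrophils and monocytes express, did not pass over all members (edgeR adjusted p = 0.236 and 0.703). Both rose without the 33 granule-gene members (log2 0.93 and 0.84, edgeR adjusted p = 0.000899 and 0.00369) and in cells of at least 5000 UMIs (log2 1.09 and 1.26, edgeR adjusted p = 0.0264 and 0.00773). The part of these markers in the results below was not tested. Of 7 measured dendritic cell genes, Flt3, Zbtb46, Xcr1 and Siglech were at 0 in members, with 11, 6, 1 and 29 UMIs in all comparison cells. Itgax was detected in 35.4% of members, Batf3 in 10.9% and Clec9a in 2.18%, against 21.2%, 2.96% and 0.592% of the shallower comparison cells. As a level, the dendritic cell genes summed to 64.8 to 110 CPM in members and 63.6 to 144 CPM in comparison cells. Most members thus had RNA of macrophage markers, as many comparison cells did, and the label of inflammatory macrophages was not tested further. In CYR61 3, 15 of the 26 members were granule-gene members. Gene results are also given without the 33 granule-gene members.

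Other genes were compared between members and comparison cells within the CYR61 libraries, with counts summed over the cells of each kind per library. edgeR's quasi-likelihood test with the library as a block called 70 of 8526 genes higher (0.821%) and 64 lower (0.751%) in members at a Benjamini-Hochberg adjusted p under 0.05, and the median log2 fold change of all genes was 0.01. Inflammatory receptors, NF-kB feedback genes, interferon-stimulated genes and MHC class II genes were among those higher, whereas ferritin, lipid-binding, lysosomal and matrix genes of mature macrophages were among those lower. Among cells of at least 5000 UMIs, 82 genes were higher and 58 lower, and 57 and 44 of the genes above were called again; CYR61 3 was not in that fit, with 9 comparison cells in the UMI range of its 17 members of that depth. Without the 33 granule-gene members and the matching comparison cells, 86 genes were higher and 63 lower, with 59 and 52 called again. The counts were 26 and 52 without CYR61 1 and 24 and 17 without CYR61 2. Within dates, they were 172 and 137 in the earlier pair of CYR61 libraries and 10 and 35 in the later pair. Without barcodes listed in another library, only CYR61 2 and 4 kept 10 members, and 14 genes were higher and 0 lower by edgeR (107 and 120 at an unadjusted p under 0.05); 1 of the 70 higher genes, Slfn4, was called again. In that fit genes among the 70 lay below 0 without passing the test, for example Cd14 (log2 -0.20), H2-Ab1 (-1.005), Marco (-0.92) and Isg15 (-0.32).

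Among receptors and sensors, Clec4e, the Mincle receptor that signals through SYK, had 124, 46.1, 21.9 and 139 CPM in members of CYR61 1 to 4, against 9.25, 12.4, 21.2 and 65.2 CPM in comparison cells. Members were higher in each library, by little in CYR61 3. Clec4e was 3.45-fold higher (log2 1.79 ± 0.30 SE, edgeR adjusted p = 0.00114). Cd14, the endotoxin co-receptor, had 202, 132, 127 and 228 CPM in members, against 77.7, 59.8, 104 and 88.4 CPM in comparison cells. The 2 sets of values did not overlap, and Cd14 was higher by log2 1.01 ± 0.14 (edgeR adjusted p = 5.38e-05). Tlr2, the receptor for bacterial lipoproteins, had 45.2, 33.5, 21.9 and 22.4 CPM in members, against 14.7, 14.1, 11.6 and 10.1 CPM in comparison cells, again without overlap (log2 1.17 ± 0.25, edgeR adjusted p = 0.00951). Of 16 tested Toll-like receptor and endotoxin genes, 2 rose and 1, Cd36, fell, with a median log2 fold change of 0.09.

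The complement component C3 had 102, 78.4, 26.8 and 90.5 CPM in members of CYR61 1 to 4, against 15.7, 19.7, 23.1 and 36.2 CPM in comparison cells. It was 3.30-fold higher (log2 1.72 ± 0.22, edgeR adjusted p = 3.98e-05), with CYR61 3 nearly level. Of 10 tested inflammatory cytokines and regulators, 3 rose (Clec4e, Cd14 and the scavenger receptor Marco), with a median of 0.68. Tnf, encoding the cytokine TNF, had 35.4, 19.6, 19.5 and 14.3 CPM in members and 10.3, 9.64, 17.3 and 7.71 CPM in comparison cells, and did not pass the test (log2 0.97 ± 0.30, edgeR adjusted p = 0.131). Il6 gave 1 UMI and Nos2 none in members, while Il1a and Ptgs2 gave 8 UMIs each, and these were too few to test. Of 11 tested genes for the IL-1 family and inflammasomes, 2 rose, with a median of 0.26. Nlrp3, the inflammasome sensor, had 55.0, 40.4, 31.6 and 46.6 CPM in members, against 21.3, 22.8, 7.71 and 18.4 CPM in comparison cells. The values did not overlap (log2 1.06 ± 0.21, edgeR adjusted p = 0.00488). In cells of at least 5000 UMIs the edgeR adjusted p was 0.0646, in a fit without CYR61 3, where the Nlrp3 log2 ratio was largest (2.04). Mefv, encoding pyrin, was higher by log2 1.17 ± 0.21 (edgeR adjusted p = 0.00225) and in 3 of 4 libraries. Il1rn, the interleukin-1 receptor antagonist, averaged 167 ± 72.7 CPM in members and 128 ± 44.6 CPM in comparison cells (SD, n = 4 each) and did not pass (log2 0.29 ± 0.20, edgeR adjusted p = 0.664).

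Within the NF-kB pathway, the genes that rose encode inhibitors and regulators of NF-kB itself. Nfkbiz, encoding the inducible regulator IkB-zeta, had 45.2, 55.4, 60.8 and 54.7 CPM in members, against 21.5, 20.1, 21.2 and 28.5 CPM in comparison cells (log2 1.08 ± 0.19, edgeR adjusted p = 0.00189). Nfkbia, encoding the inhibitor IkB-alpha, had 141, 104, 129 and 121 CPM in members, against 62.7, 67.0, 88.7 and 74.7 CPM in comparison cells (log2 0.63 ± 0.13, edgeR adjusted p = 0.00783). Neither gene's member values overlapped those of comparison cells. Tnip3, an inhibitor of NF-kB activation, rose by log2 0.78 ± 0.13 (edgeR adjusted p = 0.000726), and Nfkbie, another inhibitor, by 1.13 ± 0.28 (edgeR adjusted p = 0.0341). In all, 4 of 28 tested genes rose and 0 fell, with a median of 0.25. The subunit genes Nfkb1 (log2 0.14 ± 0.14, edgeR adjusted p = 0.801) and Rela (-0.08 ± 0.19, edgeR adjusted p = 0.932) did not pass. The calls for the 4 NF-kB genes held without the 33 granule-gene members, but with comparison cells matched for UMIs Nfkbia (edgeR adjusted p = 0.176) and Nfkbie (0.261) did not pass. The match for UMIs, here and below, was close in CYR61 1 and 2 only. In CYR61 3 and 4, members had medians of 11087 and 10586 UMIs and matched cells 2558 and 2198. Nfkbie also did not pass in cells of at least 5000 UMIs (edgeR adjusted p = 0.0557).

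Cxcl2, which attracts neutrophils, was the 1 chemokine of 10 tested that rose, and the list's median was 0.19. It had 64.8, 53.1, 29.2 and 26.0 CPM in members, against 17.6, 12.0, 25.1 and 19.6 CPM in comparison cells. The values did not overlap (log2 1.30 ± 0.28, edgeR adjusted p = 0.00917), although with comparison cells matched for UMIs the adjusted p was 0.0991, and 32 members held its 120 UMIs. Ccl4 averaged 58.9 ± 55.1 CPM in members and 33.5 ± 23.3 CPM in comparison cells (edgeR adjusted p = 0.237). Ccl3 averaged 109 ± 35.4 CPM in members and 86.3 ± 22.7 CPM in comparison cells (edgeR adjusted p = 0.705). Ccl2 averaged 19.2 ± 13.04 CPM in members and 14.6 ± 13.8 CPM in comparison cells (SD, n = 4 each; edgeR adjusted p = 0.965). These 3 chemokine genes did not pass.

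Interferon-stimulated genes gave more called genes than any other list. Of 41 tested, 11 rose and 0 fell, with a median log2 fold change of 0.34. The 42 listed genes summed to 10374 ± 2457 CPM in members, 7878 ± 2448 CPM in CYR61 comparison cells and 1292 ± 103 CPM in control cells (SD, n = 4 each). Ifit1, an antiviral RNA-binding protein, had 222, 122, 175 and 134 CPM in members, against 79.8, 76.5, 112 and 81.9 CPM in comparison cells (log2 0.76 ± 0.14, edgeR adjusted p = 0.00212). Every member value lay above every comparison value. Isg15, a ubiquitin-like modifier, had 342, 272, 355 and 466 CPM in members, against 224, 204, 227 and 316 CPM in comparison cells (log2 0.39 ± 0.08, edgeR adjusted p = 0.00988). Its values were higher in each library but overlapped between libraries, and without granule-gene members its adjusted p was 0.059.

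Ifi205, a PYHIN family protein, rose by log2 1.42 ± 0.24 (edgeR adjusted p = 0.00112), and Zbp1, a sensor of Z-form nucleic acids, by 0.62 ± 0.12 (edgeR adjusted p = 0.00297). Slfn4, a Schlafen gene of the myeloid lineage, had 122, 25.4, 231 and 216 CPM in members, against 9.95, 13.6, 148 and 81.9 CPM in comparison cells. Its level differed widely between libraries, and it was higher in members of each (log2 1.39 ± 0.27, edgeR adjusted p = 0.00362).

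The list of MHC class II genes, which present peptides to helper T cells, and of costimulators had 5 of 10 tested genes higher and 0 lower, with a median of 0.85. Of the 5, 4 belong to the class II pathway, and the fifth, Cd86, encodes a costimulator (log2 1.12 ± 0.28, edgeR adjusted p = 0.0401), whose direction was not the same in all libraries. H2-Ab1 had 301, 143, 73.0 and 62.8 CPM in members, against 81.2, 43.6, 57.8 and 36.2 CPM in comparison cells (log2 1.33 ± 0.17, edgeR adjusted p = 3.98e-05). H2-Aa had 252, 95.7, 48.7 and 43.9 CPM in members, against 55.7, 29.8, 28.9 and 23.7 CPM in comparison cells (log2 1.54 ± 0.18, edgeR adjusted p = 1.66e-05). The rise was largest in CYR61 1, and a few cells carried much of it. In 1 member of CYR61 1 there were 86 of the 377 H2-Ab1 UMIs, 64 of the 280 H2-Aa UMIs and 43 of the 113 H2-Eb1 UMIs.

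When the 5 members that each held at least 20% of a leading gene's UMIs were left out, H2-Aa (log2 0.96, edgeR adjusted p = 0.00349) and H2-Ab1 (0.79, edgeR adjusted p = 0.0234) still passed. H2-Eb1 (edgeR adjusted p = 0.311), Cd74, the class II invariant chain (0.153), and Cd86 (0.412) then did not. Marco, of whose 293 member UMIs 132 came from 1 cell of CYR61 4, had an adjusted p of 1.66e-05 with all members and 0.108 without those 5. Ccr2, the receptor of blood monocytes for CCL2, had adjusted p values of 0.000289 and 0.0736 in the same 2 fits. It was lower in members of CYR61 4 (log2 ratio -0.18). Plac8, a monocyte marker, rested on 39 UMIs in 9 cells (log2 2.43 ± 0.58, edgeR adjusted p = 0.027) and could not be tested without those 5 members. In CYR61 3 Plac8 was lower in members (log2 ratio -0.34). Clec4e, C3, Cd14, Nfkbiz, Cxcl2, Ifit1 and Slfn4 still passed without the 5 cells.

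**Figure D3:**
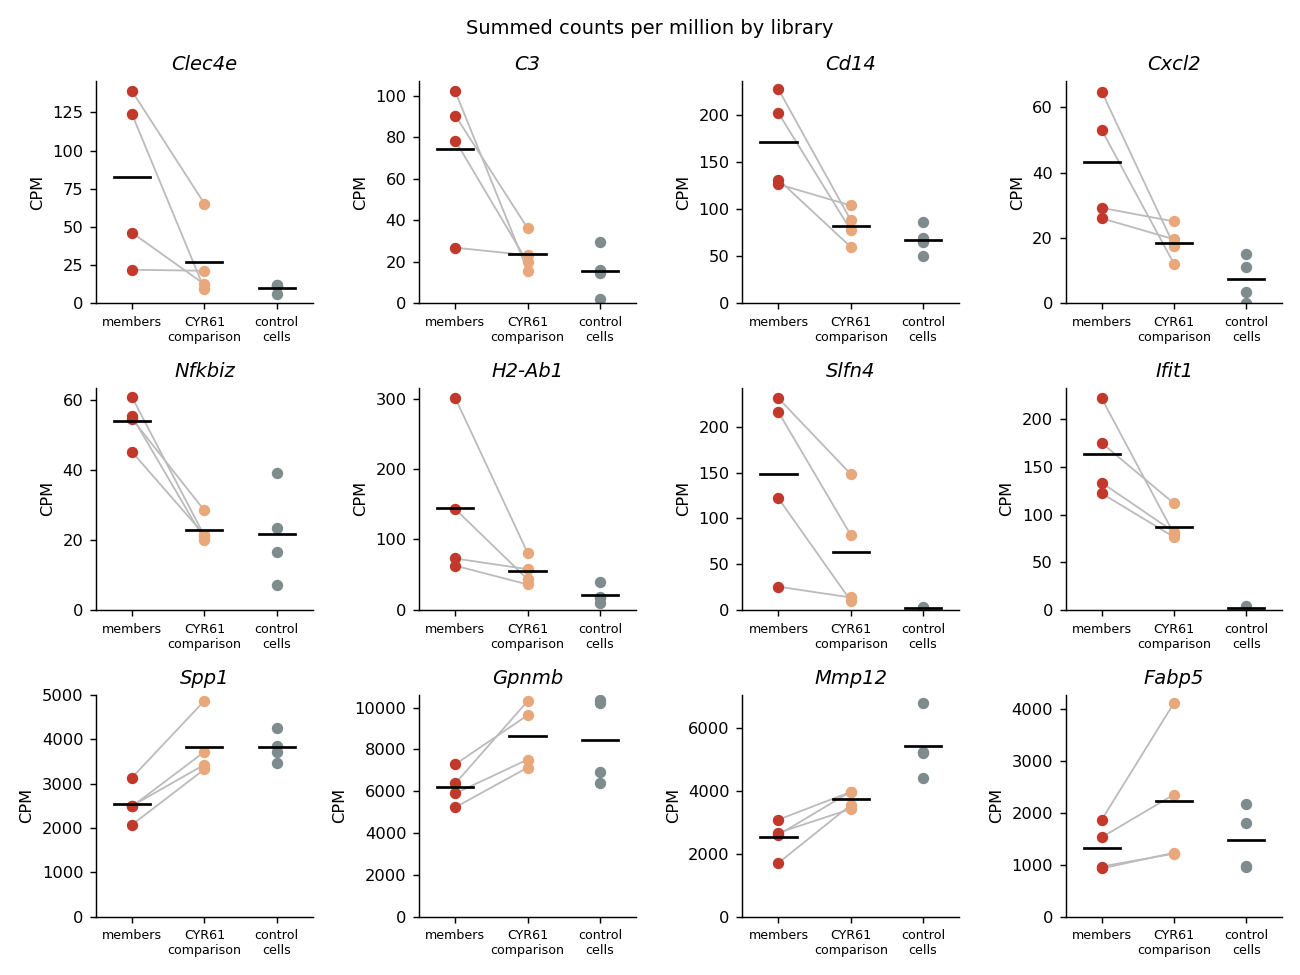
Summed CPM of 12 genes in members (left), CYR61 comparison cells (middle) and control cells (right); each point is a library, bars are means and grey lines join the 2 sums of 1 library. In each of the 4 CYR61 libraries, Clec4e to Ifit1 are higher in members and Spp1 to Fabp5 are lower.

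Of 22 tested mature macrophage and lysosome genes, 7 fell in members, 14 did not pass and 1, the transcription factor gene Maf, rose, with a median of -0.20. With comparison cells matched for UMIs, though still shallower in CYR61 3 and 4, 3 fell (Ctsl, Gpnmb and the lipoprotein lipase gene Lpl), and Maf rose. The list summed to 48730 ± 1312 CPM in members and 59999 ± 5453 CPM in comparison cells (SD, n = 4 each). Ctsl, encoding the lysosomal protease cathepsin L, had 1894, 2530, 4381 and 3049 CPM in members, against 3218, 3618, 7225 and 4210 CPM in comparison cells (log2 -0.78 ± 0.09, edgeR adjusted p = 1.66e-05). Members were lower in each library. Gpnmb, a lysosomal glycoprotein, had 5231, 5891, 6370 and 7286 CPM in members, against 7130, 7513, 10303 and 9632 CPM in comparison cells (log2 -0.63 ± 0.10, edgeR adjusted p = 0.000726).

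Among matrix genes, 4 of 13 fell and 1, the membrane metalloproteinase gene Mmp14, rose, with a median of -0.26. Spp1, encoding osteopontin, had 2075, 2500, 3137 and 2486 CPM in members, against 3322, 3427, 4866 and 3716 CPM in comparison cells (log2 -0.75 ± 0.09, edgeR adjusted p = 1.66e-05). Mmp12, encoding macrophage elastase, had 1714, 2608, 3089 and 2673 CPM in members, against 3556, 3981, 3972 and 3427 CPM in comparison cells (log2 -0.76 ± 0.10, edgeR adjusted p = 3.98e-05). Neither gene's values overlapped. Lower values were also found for the fatty-acid-binding genes Fabp4 (log2 -0.74 ± 0.09, edgeR adjusted p = 2.16e-05) and Fabp5 (-0.79 ± 0.11, edgeR adjusted p = 0.000121), for Lgals3, encoding galectin-3 (-0.76 ± 0.10, edgeR adjusted p = 5.38e-05), and for the fatty-acid receptor Cd36 (-0.54 ± 0.10, edgeR adjusted p = 0.0021).

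The heavy and light ferritin chains, which store iron, also fell. Fth1 had 6233, 6370, 9446 and 9080 CPM in members, against 7135, 8676, 28729 and 17727 CPM in comparison cells (log2 -0.96 ± 0.16, edgeR adjusted p = 0.00109), and Ftl1 fell by 0.86 ± 0.11 on the log2 scale (edgeR adjusted p = 3.98e-05). The gaps were widest in CYR61 3 and 4, where comparison cells were shallowest. In cells of at least 5000 UMIs the log2 fold changes were -0.27 for Fth1, -0.32 for Ftl1, -0.37 for Fabp5, -0.41 for Lgals3 and -0.35 for Gpnmb. Each was less than the value above by over 1.5 times. CYR61 3, which had the largest falls in these genes (log2 ratios of -1.60 for Fth1 and -1.14 for Ftl1), was not in that fit. Whether depth or the missing library made the difference was not tested. Spp1 (-0.57), Mmp12 (-0.72), Ctsl (-0.59) and Cd36 (-0.58) moved less. Lyz2 (-0.59 ± 0.13, edgeR adjusted p = 0.015) and Apoe (-0.50 ± 0.09, edgeR adjusted p = 0.00263) did not pass in those deeper cells, with adjusted p values of 0.595 and 0.197. Lyz2 was level in CYR61 1 (log2 ratio 0.017). The ribosomal RNA gene Rn18s fell by 1.16 ± 0.15 on the log2 scale (edgeR adjusted p = 4.67e-05), and by 0.30 in the deeper cells. With comparison cells matched for UMIs, Fth1, Lyz2, Apoe and Rn18s did not pass (edgeR adjusted p = 0.117, 0.442, 0.430 and 0.130).

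Syk, encoding the kinase in the study's title, averaged 257 ± 93.4 CPM in members and 224 ± 76.4 CPM in comparison cells (SD, n = 4 each; log2 0.01 ± 0.10, edgeR adjusted p = 0.985). Of 21 tested SYK and ITAM genes, 1 (Clec4e) rose, 3 fell (Tyrobp, Blnk and Clec7a) and the median was -0.01. Tyrobp, the adaptor DAP12, fell by 0.40 ± 0.08 on the log2 scale (edgeR adjusted p = 0.00684), with an adjusted p of 0.0978 without granule-gene members. With comparison cells matched for UMIs, Tyrobp, Blnk and Clec7a did not pass (edgeR adjusted p = 0.205, 0.107 and 0.0957), and Clec4e did. Of 3 tested PDGF genes, 0 passed edgeR's test, with Pdgfa at log2 -0.55 ± 0.23 (edgeR adjusted p = 0.372, unadjusted p = 0.0276) and Pdgfb at -0.17 ± 0.21 (edgeR adjusted p = 0.847). Among 9 tested integrin genes that can bind CYR61, Itgax fell by 0.69 ± 0.15 on the log2 scale (edgeR adjusted p = 0.00951). In CYR61 3, however, Itgax was higher in members (log2 ratio 0.44). Ccn1, which encodes CYR61, gave 1 UMI in members and none in comparison or control cells. Of 18 tested proliferation genes, 2 rose, Mki67 (log2 0.60 ± 0.12, edgeR adjusted p = 0.00554) and Top2a (0.60 ± 0.12, edgeR adjusted p = 0.00664), with a median of 0.31, and Mki67 had an adjusted p of 0.0747 without granule-gene members. With matched comparison cells 0 of 19 tested proliferation genes passed edgeR's test (Mki67 0.0744, Top2a 0.284). None of 14 tested MHC class I genes was called.

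**Figure D4:**
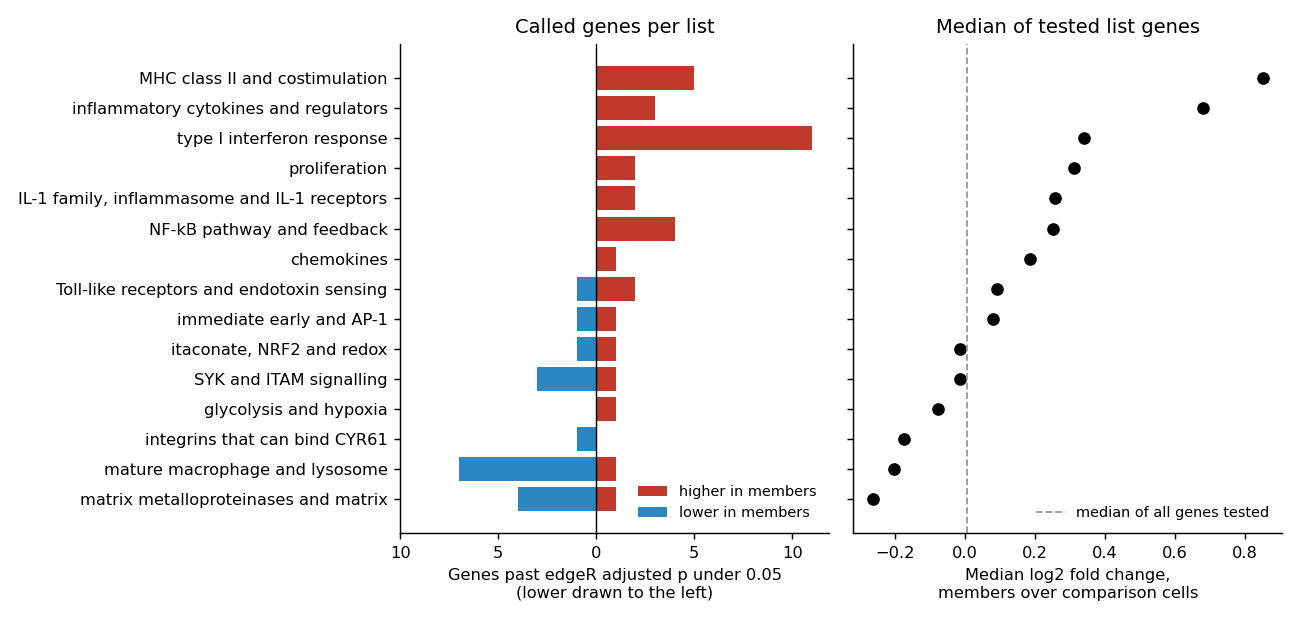
Number of called genes per list, higher to the right and lower to the left (left panel), and the median log2 fold change of the tested genes of each list, members over comparison cells (right panel; the dashed line is the median of all genes tested). Only pathway lists with a called gene are drawn. Among these, MHC class II and costimulation leads by median (0.85) and the interferon list by called genes (11 of 41). Matrix genes have the lowest median of the lists drawn (-0.26). The PDGF list, with 0 called genes, had a median of -0.51 and is not drawn.

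Cells on both sides of the threshold were compared without a test. There were 660 CYR61 cells with 1 UMI of the 4 RNAs and 90 with 2 UMIs of 1 gene just outside the rule, and 57 cells with 1 UMI of each of 2 genes and 54 with 3 UMIs just inside it. As means over the 4 libraries, the summed interferon list stood at 7878 ± 2448 CPM with 0 UMIs, 8866 with 1, 9628 with 2 of 1 gene, 9180 with 2 of 2 genes, 10733 with 3, 9712 with 4 to 9 and 12277 ± 2704 with at least 10 (SD, n = 4). From 0 to at least 10 UMIs, the list went from 5784 to 10701 CPM in the earlier pair of libraries and from 9972 to 13852 CPM in the later pair. The steps between were not all upward in either pair. NF-kB genes had 1745 ± 157, 1821, 1820, 1962, 2024, 2184 and 2459 ± 199 CPM over those steps. Mature macrophage genes stood at 59999 ± 5453 CPM with 0 UMIs and 48190 ± 5647 CPM with at least 10, while the MHC class II and costimulation list showed no order. The last step held as few as 3 cells in CYR61 3. The members are a range cut from these counts. Median UMIs per cell also climbed over the steps, from 1430 with 0 UMIs to 13746 with at least 10, and the part of depth in these steps was not tested.

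**Figure D5:**
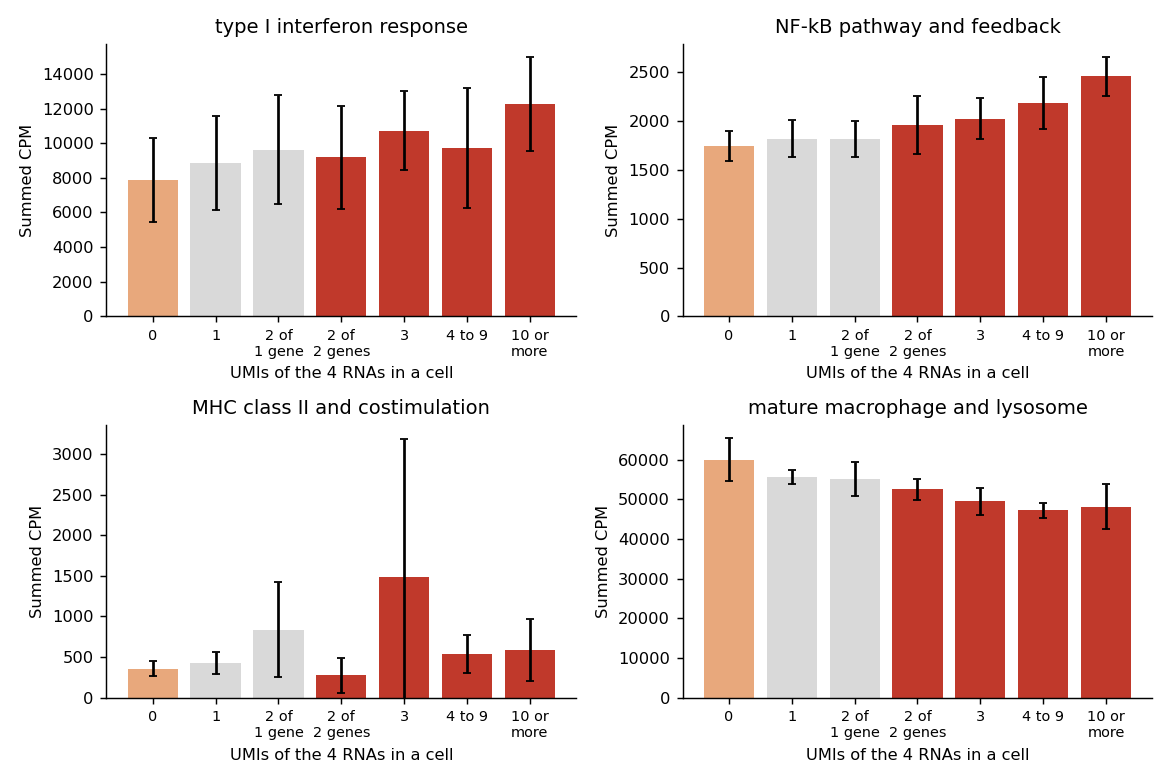
Summed CPM of 4 gene lists in CYR61 cells ordered by their UMIs of the 4 RNAs (comparison cells in orange, cells outside the rule in grey, members in red); bars are means over the 4 CYR61 libraries and lines are SDs, drawn down to 0 at most. Interferon genes stand at 7878 CPM with 0 UMIs and 12277 CPM with at least 10, and mature macrophage genes at 59999 and 48190 CPM.

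Levels in members are also given by the RNA they carried, as means over the 4 CYR61 libraries with no test. The rule is built on the same RNAs, so that a member without one of them must carry more of the others, and the genes given were chosen after their values were seen. The 99 members with Acod1 had Cxcl2 at 94.4 CPM and Clec4e at 148 CPM, against 16.2 and 38.7 CPM in the 130 without it. Their interferon list summed to 12150 CPM, against 8972 CPM without Acod1, and Nlrp3 stood at 65.4 CPM against 30.8 CPM. The 137 members with Ccl5 had H2-Aa at 153 CPM and the MHC class II list at 1003 CPM, against 48.5 and 401 CPM in the 92 without it, and Nfkbiz at 32.1 CPM against 101 CPM. The class II cell of CYR61 1 with 86 H2-Ab1 UMIs was a Ccl5 carrier. Spp1 stood at 2510 CPM with Acod1 and 2531 CPM without it. It stood at 2209 CPM with Il1b, over the 3 libraries with carriers used, and at 2571 CPM without Il1b, over all 4 libraries. The 2 Il1b values thus cover unlike sets of libraries.

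Whether members themselves responded to CYR61 could not be tested, since no control library held 10 members. The cells without any of the 4 RNAs were compared instead between CYR61 and control, with edgeR on sums per library. Of 9236 genes, 97 were higher (1.05%) and 6 lower (0.065%) in CYR61 cells, and 38 of 40 tested interferon genes rose, with a median of 3.05. Of the 70 genes higher in members, 62 were tested here, and 15 were also higher in CYR61 comparison cells than in control cells. Of the 64 genes lower in members, 0 were called in either direction. With shares of 1.05% and 0.065% called over all genes, that 0 does not set these 64 genes apart. Ifit1 stood at 163 ± 45.3 CPM in members, 87.5 ± 16.3 CPM in CYR61 comparison cells and 1.61 ± 1.76 CPM in control cells (SD, n = 4 each), and the CYR61 comparison cells exceeded control cells by log2 5.28 (edgeR adjusted p = 6.43e-05). Slfn4 stood at 149 ± 95.4, 63.4 ± 65.6 and 2.60 ± 0.573 CPM in the same 3 sets (CYR61 comparison over control log2 4.57, edgeR adjusted p = 0.0327). For Nfkbiz the 3 values were 54.0 ± 6.50, 22.8 ± 3.82 and 21.6 ± 13.5 CPM, and CYR61 comparison cells were not called against control cells (log2 0.14, edgeR adjusted p = 1). Spp1 stood at 2550 ± 439, 3833 ± 709 and 3821 ± 323 CPM (CYR61 comparison over control log2 0.07, edgeR adjusted p = 1). With each barcode kept in every library that lists it, edgeR called 0 genes in this comparison (158 higher and 119 lower at an unadjusted p under 0.05).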

How the data were processed

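HIVE single-cell RNA-seq was analysed from 8 tables of UMI counts that the authors deposited, 1 per library, with 32249 genes. Per the submitters' processing notes the build was mm10; an aligner and a cell filter were not given in the sources used here. Whole-number counts, not normalized, were read as deposited. Members and gene lists were chosen with earlier results of these data known. Cells needed at least 300 genes and at most 20% mitochondrial UMIs, and stayed only in the library of their date stamp with most UMIs.

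Counts were summed per library over members and over comparison cells (none of the 4 RNAs, UMIs within the range of that library's members). Libraries needed 10 cells of each kind, and the 4 rule genes were left out. edgeR 4.0.16 (R 4.3.3) fitted the sums with TMM, filterByExpr, glmQLFit and glmQLFTest and a term for library, which pairs the sums because both come from the same library, with Benjamini-Hochberg adjustment over all genes tested. For CYR61 against control, control cells took the UMI range of all CYR61 members, since control libraries had too few members to set a range; this was chosen after seeing the data, as were the fits on cells of at least 5000 UMIs, without core granule genes, without other lineages, without ribosomal RNA, without dominant cells, on members with at least 500 CPM of the rule RNAs and without barcodes listed elsewhere. Other alternatives included DESeq2 1.42.0. The edgeR step was tested on simulated counts. Scrublet, through scanpy 1.11.5, marked 0.112% of CYR61 cells, none of their members, and 99.7% of control 1 cells, and was not taken as working, so doublets were left in. CPM divide a sum by its total UMIs, and SDs are over libraries.

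Named genes were those with an adjusted p under 0.05, at least 20 CPM in the higher kind and 1 direction in all libraries, by the largest changes in each direction, plus called genes of each list with the smallest p and genes of the study's purpose; S100a8, S100a9, Cd86 and Lpl were named after their values were seen. No gene of the erythroid, endothelial and eosinophil marker lists was abundant enough to test, and the 2 megakaryocyte genes tested were not called.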

Additional observations from a re-analysis of the deposited data

Results flagged for a closer look

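Values of single libraries were compared with the other 3 of their group in 71 groups of 4, and chance alone sets about 1 group in 20 apart. The log2 ratio of member to comparison CPM for Marco was 2.64 in CYR61 1, far above the other CYR61 libraries. For Ifit3b the ratio was 0.0958 in CYR61 3, far below the others, and for Ifit1 it was 1.48 in CYR61 1, above the others. The ratio for Rela was -0.68 in CYR61 4, below the others. The member share of control 2, 0.635%, stood apart from 0 in the other control libraries. In barcodes with fewer than 300 genes, which none of the comparisons used, the 4 RNAs summed to 151 CPM in CYR61 libraries (64.2 to 227 by library, and 98.0 without CYR61 4), above the 15.1 CPM in control libraries (1.75 to 59.5 by library, and 8.32 without control 3).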

How the results depend on the processing

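Shares of members moved with depth and with the handling of barcodes. Against a mean of 4.28% in CYR61 libraries and 0.159% in control libraries, the means were 1.48% and 0 after thinning to 1000 UMIs, 0.305% and 0 after thinning to 500 UMIs, 7.66% and 0.259% in cells of at least 500 genes, and 15.1% and 0.888% for cells with any UMI of the 4 RNAs. They were 19.95% and 1.06% in cells of at least 5000 UMIs, 1.05% and 0 without barcodes listed in another library, and 3.95% and 0.933% with each barcode kept in every library. Leaving out 1 library gave 3.27% to 5.01% for CYR61 and 0 to 0.212% for control. For genes higher and lower in members, against 70 and 64, there were 24 and 46 with DESeq2, 100 and 128 with no filter on low counts, 41 and 37 with a stricter member rule, 141 and 114 with all kept barcodes (CYR61 and control 2 libraries), 70 and 42 without granule-list cells, and 53 and 21 with comparison cells matched for UMIs. The matched cells of CYR61 3 and 4 still had medians of 2558 and 2198 UMIs, against 11087 and 10586 in their members. There were 172 and 137 within the earlier date, 10 and 35 within the later date, and 14 and 0 without barcodes listed in another library. With no replicate block, edgeR called 0 and 0 (unadjusted p under 0.05 in 69 and 60), with no DESeq2 run of that setting. Leaving out 1 CYR61 library gave 24 to 89 higher and 17 to 62 lower. For CYR61 against control in cells without the 4 RNAs, against 97 and 6, there were 136 and 31 with DESeq2, 174 and 55 with no filter, 0 and 0 with all kept barcodes (DESeq2 not run there), 90 and 1 without granule-list cells, 174 and 58 with the Xist or Y split as a term, 85 and 67 within the earlier date and 73 and 2 within the later date. Leaving out 1 library gave 67 to 91 higher and 1 to 24 lower. The replicate block, with numbers shared by CYR61 and control libraries, gave 89 and 7, and the numbers were not taken as pairs, since same-numbered libraries deviated with correlations from -0.29 to 0.35 and 2 of 4 correlated best with their own number. The cause of these changes was not tested.

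Over 1489 combinations of a called named gene and a setting, 1156 kept the call and direction, 321 kept the direction only and 12 reversed. The settings of CYR61 libraries only and of at least 5 members per library repeated the main fit. No control library entered that fit, so the calls kept in these settings were fixed in advance. Without barcodes listed in another library, log2 fold changes were -0.92 for Marco, -1.005 for H2-Ab1, -0.20 for Cd14, -0.59 for Cd74, -0.52 for Mmp14, -0.63 for Sod2, -0.10 for Zbp1, -1.02 for Mki67, -1.46 for Hif1a and -0.32 for Isg15, each without passing the test, and uncalled Il1rn was at -0.51, Nfkb1 at -0.31, Syk at -0.43, Rela at 0.49 and Pdgfb at 0.23. Cd74 was at -0.042 within the later date and Top2a at -0.0028 without granule-list cells. Among other genes that never passed in the main fit, Il1rn was at -0.17 and Nfkb1 at -0.11 within the later date. Ccl2 was at -0.011 with no filter, -0.0054 with no block, -0.10 with matched cells, -0.12 in deeper cells and -0.25 within the earlier date. Syk was at -0.047 with no filter, -0.0096 with at least 500 genes, -0.0034 with all kept barcodes, -0.015 with those of CYR61 libraries only, -0.021 without core granule cells, -0.020 without other lineages, -0.033 with matched cells, -0.063 in deeper cells and -0.17 within the later date. Rela was at 0.050 with the stricter rule and 0.29 within the earlier date. Leaving out 1 CYR61 library gave lowest and highest values of -0.19 and 0.49 for Il1rn, -0.035 and 0.36 for Ccl3, -0.30 and 0.94 for Ccl2, -0.091 and 0.15 for Syk and -0.26 and 0.26 for Rela. The interaction of membership with CYR61 could not be fitted, since control libraries lacked members, nor could control libraries alone.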
